A study of Mus musculus with 2 samples.

Results

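The 8 genes described here are the receptor genes Mertk, Axl, Tyro3, Stab1 and Timd4 and the bridging protein genes Gas6, Pros1 and Mfge8. They were chosen by name as genes for the uptake of dying cells, and each matched 1 row of the expression table, giving 8 of the 34295 genes in it. The table holds 2 libraries of wild type C57BL/6J mouse cells, 1 of bone marrow derived macrophages and 1 of embryonic fibroblasts, prepared to survey growth factors and their receptors. The macrophages were grown for 6 days in medium with 10% serum and 30% conditioned medium of L929 cells, a mouse fibroblast line used as a source of the macrophage growth factor CSF1, and were then replated at 750000 cells. The fibroblasts came from E13.5 to E14.4 embryos without head and red tissue, were sorted against cells carrying CD45, CD11b or F4/80, and were used at passage 4 to 7 from 100000 cells in medium with 10% serum. Both cultures were collected after a night on the plate, and the labels name no added dying cells. With 1 library per cell type there is no replicate error and no test, and cell type cannot be told apart from medium, cell number or preparation.

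A cell that dies by apoptosis turns the lipid phosphatidylserine to its outer surface, and phagocytes read it directly or through soluble bridging proteins. GAS6 and protein S, encoded by Gas6 and Pros1, bind the lipid through domains modified by the vitamin K cycle and engage the TAM receptor kinases TYRO3, AXL and MERTK. GAS6 binds all of these kinases, and protein S binds TYRO3 and MERTK. MFGE8 joins the lipid to integrins that contain the alpha-v subunit. TIMD4 and STAB1 bind phosphatidylserine without a bridge: TIMD4 tethers dying cells on many tissue resident macrophages, and STAB1 is a large scavenger receptor of sinusoidal endothelium and of some macrophages.

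Levels are given as transcripts per 1000000 transcripts (TPM), which are corrected for transcript length and sum to 999609 in the macrophage library and 999545 in the fibroblast library. They keep no read depth, so the depth and the detection limit are unknown and a 0 is only a listed value. With 1 added to each TPM, a log2 ratio of macrophage over fibroblast of 2 or more in size (4-fold) counts as a difference if the higher level is at least 5 TPM, and such genes are called higher here. Over genes that passed 5 TPM on both sides, the midpoint of the log2 ratios, here without the added 1, was -0.18. All 12 macrophage marker genes were higher in the macrophage library and all 12 fibroblast marker genes in the fibroblast library. Macrophage markers appeared in the fibroblast library at 0.0384% to 0.441% of their macrophage level, and fibroblast markers in the macrophage library at 0.0693% to 0.523% of their fibroblast level. In bulk RNA of this kind, fewer cells of a type and less RNA per cell cannot be told apart.

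Both libraries held transcripts of most members, in different amounts. Macrophages were higher in Stab1 and Mertk, fibroblasts were higher in Axl, Tyro3, Pros1 and Mfge8, Gas6 was high in both, and Timd4 was listed at 0 in both. By the size rule 2 of the 8 genes were thus higher in macrophages, where the rule called 8.77% of the 11191 genes at 5 TPM or more in either library. The 4 higher in fibroblasts stand beside 14.3% of those genes, and the 6 called in either direction beside 23.1%. Of the members, 7 reached 5 TPM in either library. Because the genes were picked with earlier results of these data known, and because a gene can pass the minimum through its higher library alone, these counts describe the members and carry no further weight. Of the 6 calls, 3 were lost under an alternative: that of Axl under median-of-ratios scaling, at a log2 ratio of -1.99, and those of Mertk and Tyro3 with a pseudocount of 5, at 1.50 and -1.87.

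**Figure D1:**
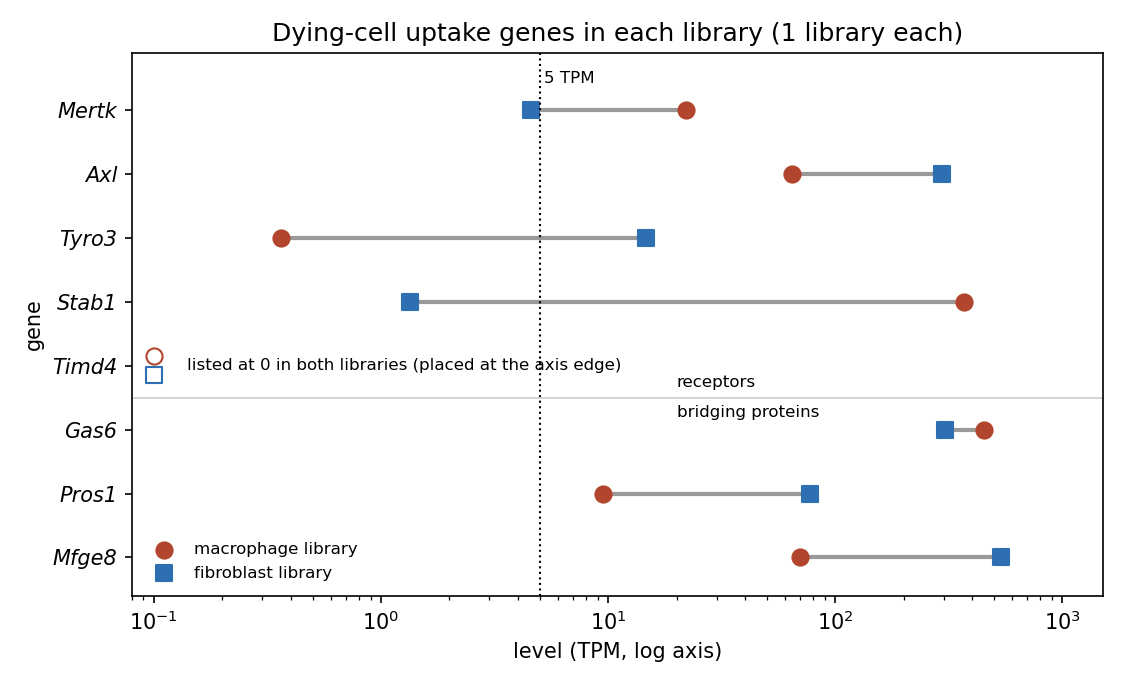
Level of each gene in TPM on a log axis, with circles for the macrophage library and squares for the fibroblast library (1 library each, no error) and a dotted line at 5 TPM. Stab1 spans the widest gap, with 367 TPM in macrophages against 1.34 TPM in fibroblasts, while the Gas6 symbols lie close together at 451 TPM in macrophages against 304 TPM in fibroblasts, and the open symbols mark Timd4, listed at 0.

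The stretches before the starts of 4 of the genes are shown because these genes stand for the different patterns: Stab1 and Mertk on the macrophage side, Axl and Pros1 on the fibroblast side. Each is the 250 bases before the gene's RefSeq start in GRCm38.p6, read 5′ to 3′ on the gene's own strand. Capitals mark matches on either strand to the PU.1 core GAGGAA, the AP-1 site TGANTCA, the TEAD site GGAATG and the GC box GGGCGG, and adjoining capitals in Pros1 include overlapping GC boxes. The windows are chr14:31168642-31168891 on the minus strand for Stab1, chr2:128698665-128698914 on the plus strand for Mertk, chr7:25788734-25788983 on the minus strand for Axl and chr16:62854057-62854306 on the plus strand for Pros1.
Stab1: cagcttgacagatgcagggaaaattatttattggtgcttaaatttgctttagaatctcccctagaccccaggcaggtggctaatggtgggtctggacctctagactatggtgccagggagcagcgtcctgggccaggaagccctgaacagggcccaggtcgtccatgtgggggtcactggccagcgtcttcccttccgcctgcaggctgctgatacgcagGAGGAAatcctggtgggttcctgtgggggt
Mertk: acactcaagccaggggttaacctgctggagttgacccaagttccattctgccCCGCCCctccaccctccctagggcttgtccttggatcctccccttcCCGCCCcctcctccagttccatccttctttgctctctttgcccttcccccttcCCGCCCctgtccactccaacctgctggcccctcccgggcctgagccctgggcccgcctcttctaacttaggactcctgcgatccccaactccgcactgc
Axl: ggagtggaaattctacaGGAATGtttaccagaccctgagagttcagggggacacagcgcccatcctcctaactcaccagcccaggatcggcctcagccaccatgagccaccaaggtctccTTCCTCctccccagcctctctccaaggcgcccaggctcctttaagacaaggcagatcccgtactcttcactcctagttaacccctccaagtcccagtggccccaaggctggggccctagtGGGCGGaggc
Pros1: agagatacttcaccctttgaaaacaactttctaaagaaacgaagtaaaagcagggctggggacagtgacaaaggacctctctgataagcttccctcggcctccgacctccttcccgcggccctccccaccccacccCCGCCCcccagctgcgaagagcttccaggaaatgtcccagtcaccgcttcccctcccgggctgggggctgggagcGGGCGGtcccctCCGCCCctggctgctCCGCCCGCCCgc

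All 8 members matched a window in the RefSeq promoter table. The GC box was found in 6 of the 8, against 32.7% of all 32851 windows of the same length. The windows without it were those of Stab1 and Timd4, and Pros1 held the most matches, 5. The PU.1 core was found in 3 of the 8, Stab1, Axl and Mfge8, against 23.3% of all windows, so that it lay before genes of both directions. The AP-1 site was in none of the 8, against 6.75% of all windows, and the TEAD site in Axl alone, against 12.6%. CpG dinucleotides numbered 5 in Stab1 and 4 in Timd4, 5 in Axl, 7 in Mertk, 10 in Gas6, 12 in Mfge8, 15 in Pros1 and 24 in Tyro3, where the median window held 6. The Tyro3 window is uncertain as a start, since GENCODE M21 begins the gene 1781 bases away. These are matches of letters, and no binding or chromatin was measured.

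The TAM receptor kinases differed in both amount and makeup. Axl, whose product prefers GAS6, stood at 64.6 TPM in macrophages against 294 TPM in fibroblasts, 4.55-fold lower in macrophages (log2 ratio -2.17). It ranked 2370 of 11429 genes at 1 TPM or more in macrophages and 536 of 12561 in fibroblasts. Axl was therefore well expressed in both libraries, and its call is the one that median-of-ratios scaling removes. Axl (ENSMUSG00000002602) is a minus-strand gene of chromosome 7, from 25757273 to 25788705 in GRCm38.

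Mertk, the kinase known for uptake of dying cells by macrophages and by retinal pigment epithelium, had 22.1 TPM in macrophages and 4.59 TPM in fibroblasts, 4.81-fold higher in macrophages (log2 ratio 2.05). It ranked near the middle in macrophages, at 5476 of 11429 genes, and in the lower part in fibroblasts, at 10354 of 12561. Its fibroblast level was 20.8% of its macrophage level, which is above the 0.441% reached by the highest of the 12 macrophage markers in that library. Mertk (ENSMUSG00000014361) is a plus-strand gene of chromosome 2 at 128698956 to 128802894, where the annotated antisense gene Gm14011 and the small RNA gene Gm23172 fall inside it.

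Tyro3, the member of the family best known from the nervous system, stood at 0.362 TPM in macrophages against 14.7 TPM in fibroblasts (log2 ratio -3.52). The gene was below 1 TPM in macrophages, where its level was 2.47% of the fibroblast one, and the highest fibroblast marker share there was 0.523%. Tyro3 (ENSMUSG00000027298) lies on the same chromosome and strand as Mertk, at 119797733 to 119818104.

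Summed, the TAM receptor transcripts came to 87.1 TPM in macrophages and 314 TPM in fibroblasts, 3.60-fold lower in macrophages. Axl made up most of the sum in either cell, with 74.2% in macrophages and 93.9% in fibroblasts. Mertk made up 25.3% in macrophages and 1.46% in fibroblasts. Tyro3 made up 0.416% in macrophages and 4.67% in fibroblasts. The ratio of Axl to Mertk, which does not depend on how the libraries are scaled, was 2.93 in macrophages and 64.2 in fibroblasts. Even in macrophages, then, Axl transcripts outnumbered those of Mertk.

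**Figure D2:**
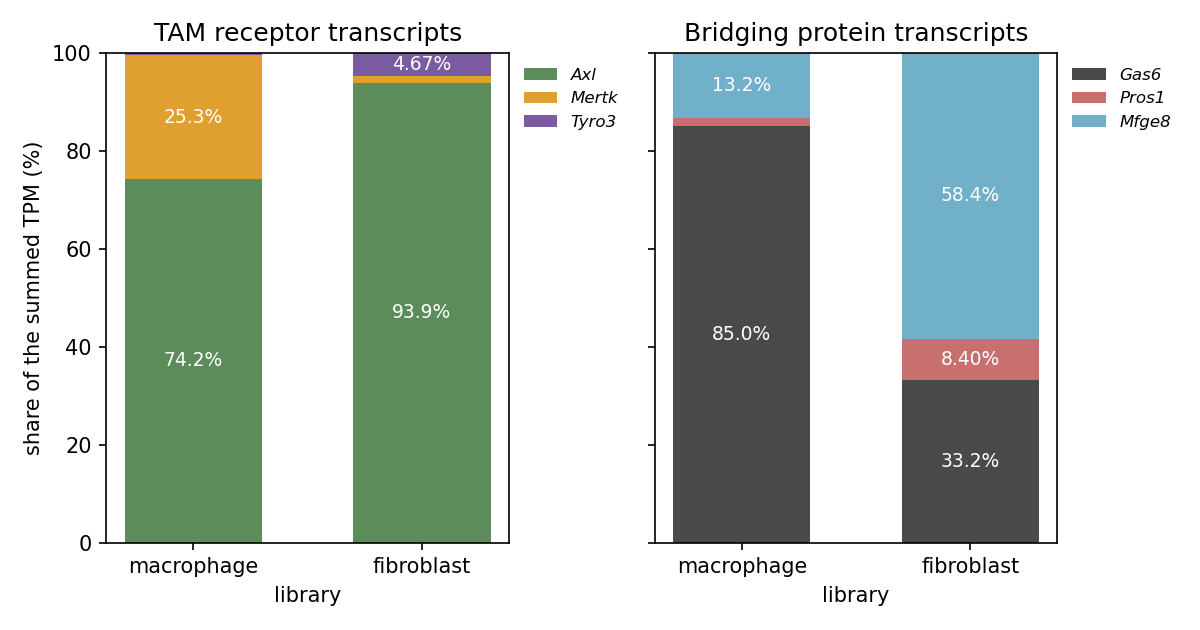
Shares of the summed TPM of the TAM receptor genes (left) and of the bridging protein genes (right), as stacked bars that add to 100% in the macrophage and the fibroblast library (1 library each, no error). Mertk takes 25.3% of the receptor sum in macrophages and 1.46% in fibroblasts, and Gas6 takes 85.0% of the bridging sum in macrophages and 33.2% in fibroblasts.

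The TAM ligands reached similar totals in the 2 libraries, again with a different makeup. Gas6 had 451 TPM in macrophages and 304 TPM in fibroblasts, 1.48-fold higher in macrophages and not called (log2 ratio 0.57). It was the most abundant of the 8 genes in macrophages, at rank 362 of 11429, and came at rank 521 of 12561 in fibroblasts. Pros1, whose product protein S is also an anticoagulant cofactor, had 9.52 TPM in macrophages and 77.0 TPM in fibroblasts, 8.09-fold lower in macrophages (log2 ratio -2.89). Together the ligands came to 461 TPM in macrophages and 381 TPM in fibroblasts, and Pros1 made up 2.07% of that sum in macrophages and 20.2% in fibroblasts. The ratio of Gas6 to Pros1 was 47.4 in macrophages and 3.95 in fibroblasts. Ligand transcripts exceeded receptor transcripts 5.29-fold in macrophages and 1.22-fold in fibroblasts. Gas6 (ENSMUSG00000031451) is a minus-strand gene of chromosome 8 at 13465374 to 13494490, and Pros1 (ENSMUSG00000022912) is a plus-strand gene of chromosome 16 at 62854307 to 62929346. The last part of Gas6 overlaps Tmem255b on the opposite strand over 3100 bases, and Tmem255b was listed at 0 in both libraries.

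Of the 5 known ligand and receptor pairs of the TAM system, 3 had both genes at 5 TPM or more within macrophages, 3 within fibroblasts and 3 in each direction between the cells, but they were not the same pairs. Gas6 with Axl was complete in every combination. The pairs of Gas6 and Pros1 with Mertk were complete where the receptor was that of macrophages, and those with Tyro3 where it was that of fibroblasts. Mertk in fibroblasts missed the minimum by little: at 1 TPM all 5 pairs with fibroblast receptors were complete, from either cell's ligand, and those with macrophage receptors remained at 3. These are transcript levels, and neither protein nor uptake was measured.

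Mfge8, the third bridging gene, was the most abundant of the 8 in fibroblasts. It stood at 69.9 TPM in macrophages against 535 TPM in fibroblasts, 7.65-fold lower in macrophages (log2 ratio -2.92), at rank 2199 of 11429 in macrophages and rank 285 of 12561 in fibroblasts. Among the bridging genes it made up 13.2% of the summed TPM in macrophages and 58.4% in fibroblasts, and Gas6 made up 85.0% in macrophages and 33.2% in fibroblasts. The ratio of Gas6 to Mfge8 was 6.45 in macrophages and 0.569 in fibroblasts. Among Gas6, Pros1 and Mfge8 alone, the leading transcript thus changed with the cell. None of the 3 integrin genes listed for MFGE8 passed the size rule. Itgb5 stood at 284 TPM in macrophages against 278 TPM in fibroblasts. Itgav stood at 37.3 TPM in macrophages against 80.8 TPM in fibroblasts, and Itgb3 at 2.89 TPM in macrophages against 5.43 TPM in fibroblasts, and the median log2 ratio of the 3 was -0.73. Itgb5 was more abundant than Itgb3 in either cell, and other partners of Itgav were not listed. Mfge8 (ENSMUSG00000030605) is a minus-strand gene of chromosome 7 at 79133768 to 79149060.

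Stab1 showed the widest difference of the group. It had 367 TPM in macrophages and 1.34 TPM in fibroblasts, 275-fold higher in macrophages (log2 ratio 7.30), and ranked 426 of 11429 genes in macrophages. The fibroblast level was 0.364% of the macrophage level, inside the 0.0384% to 0.441% at which macrophage markers appeared there. Its paralog Stab2, a marker of sinusoidal endothelium, was below 1 TPM in both libraries, at 0.196 in macrophages and 0.303 in fibroblasts. Of 12 endothelial markers 3 reached 5 TPM in either library and 1, the von Willebrand factor gene Vwf, was higher in macrophages. This call was 33.3% of the 3, beside 8.77% of all genes at 5 TPM or more. Vwf stood at 27.3 TPM in macrophages against 0.332 in fibroblasts. The list summed to 39.1 TPM in macrophages and 21.4 TPM in fibroblasts. Of the others, Kdr stood at 6.14 TPM in macrophages against 3.10 TPM in fibroblasts, Egfl7 at 2.72 TPM in macrophages against 11.9 TPM in fibroblasts, and Pecam1 at 1.33 TPM in macrophages against 1.97 TPM in fibroblasts. Cdh5 and Tie1 were below 1 TPM in both libraries, and Tek, Emcn and Cldn5 were listed at 0 in macrophages. The part of endothelial cells in the Stab1 level was not tested. Stab1 (ENSMUSG00000042286) is a minus-strand gene of chromosome 14 at 31139013 to 31168641. Its last 112 bases overlap the end of Nt5dc2 on the opposite strand, which stood at 121 TPM in macrophages against 76.2 TPM in fibroblasts. The part of this overlap in the Stab1 level was not tested.

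Timd4 was listed at 0 in both libraries, so no fold can be given for it. Its relatives of the TIM family were uneven: Havcr2, encoding TIM-3, stood at 105 TPM in macrophages against 0.920 TPM in fibroblasts, while Havcr1 and Timd2 were listed at 0 in macrophages. Of 13 genes listed as markers of tissue resident macrophages, 5 reached 5 TPM in either library. All 5 were higher in macrophages, beside 8.77% of all genes at 5 TPM or more: Folr2, Siglec1, Mrc1, Cd5l and F13a1. Their levels lay between 168 TPM for Folr2 and 23.8 TPM for F13a1 in macrophages, and at 1.83 TPM or less in fibroblasts. Lyve1, Clec4f and Cd209b were listed at 0 in both libraries, Vsig4 stood at 0.218 TPM in macrophages, and Cd163 and Marco at 1.84 and 1.63 TPM there. Of 11 markers of neutrophils and their precursors, 6 reached 5 TPM in either library. All 6 were higher in macrophages, beside 8.77% of all such genes. The list summed to 517 TPM in macrophages and 2.42 TPM in fibroblasts. Most of the macrophage sum lay in S100a9 and S100a8, at 268 and 157 TPM. Ngp, Csf3r, Ltf and Camp stood at 48.3, 15.2, 12.0 and 5.17 TPM in macrophages. Prtn3, Mpo, Elane and Retnlg stood at 4.67, 2.83, 2.34 and 2.01 TPM there, and Ly6g was listed at 0 in both libraries. The part of neutrophils and their precursors in the macrophage levels was not tested. Timd4 (ENSMUSG00000055546) is a plus-strand gene of chromosome 11 at 46810800 to 46844332.

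**Figure D3:**
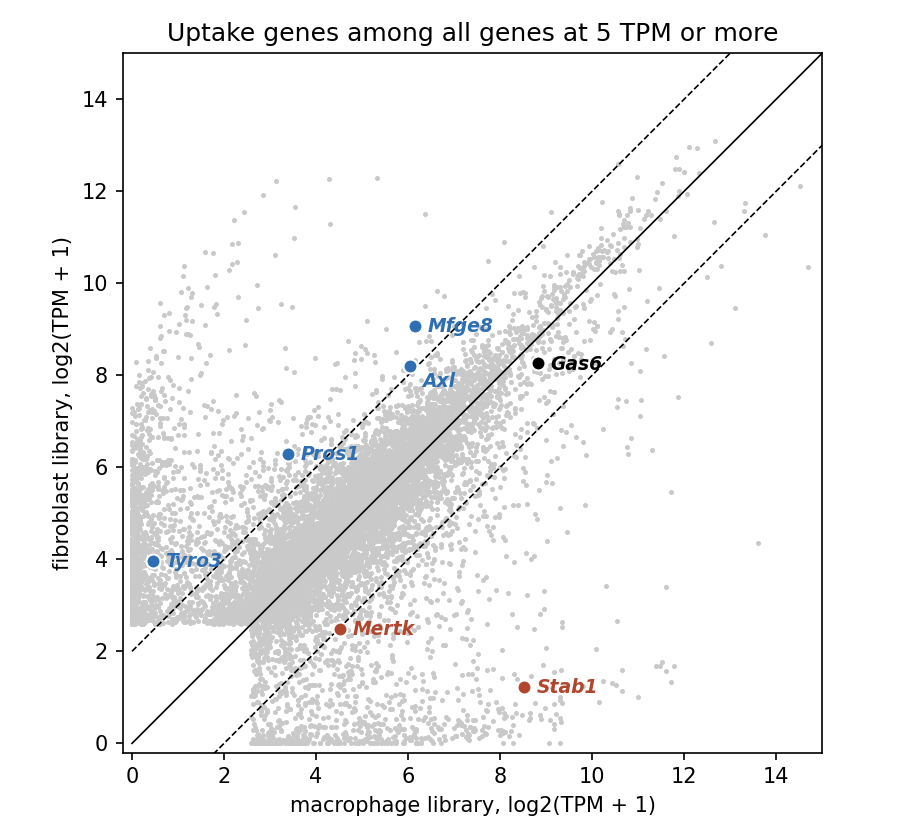
Each grey point is 1 of the 11191 genes at 5 TPM or more in either library, placed by log2(TPM + 1) in the macrophage library (x axis) and the fibroblast library (y axis), with dashed lines at the 4-fold limit. Stab1 lies far below the lower line, Gas6 near the diagonal, and Axl and Mertk just past the limit, with log2 ratios of -2.17 and 2.05 (Axl falls short of it under median-of-ratios scaling).

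Within macrophages the order of levels was Gas6, Stab1, Mfge8, Axl, Mertk, Pros1, Tyro3 and Timd4, and within fibroblasts it was Mfge8, Gas6, Axl, Pros1, Tyro3, Mertk, Stab1 and Timd4. Without replicates it cannot be said which neighbours differ, such as Mfge8 and Axl in macrophages at 69.9 and 64.6 TPM, or Gas6 and Axl in fibroblasts at 304 and 294 TPM. Among the listed pathway genes, the closest in both levels, by distance on the log2(TPM + 1) scale, were Cd14 and Cd36 for Stab1, at 0.29 and 0.63, and P2ry2 and Abca1 for Mertk, at 0.25 and 0.65. Rab7 and Rhoa were closest to Gas6, at 0.29 and 0.66, and Sphk1 and Cx3cl1 to Tyro3, at 0.14 and 0.72. Vkorc1 and Csf1 were closest to Axl, at 0.80 and 1.14, and Pparg and Nqo1 to Pros1, at 0.76 and 1.12. Mfge8 had the least close neighbours, Csf1 and Akt1, at 1.25 and 1.51. Such likeness rests on only 2 libraries.

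Other genes listed as receptors for dying cells lay mostly toward macrophages. Of 19 listed genes 11 reached 5 TPM in either library, of which 8 were higher in macrophages and 0 in fibroblasts. The 8 were 72.7% of the 11, beside 8.77% of all genes at 5 TPM or more. Those of the 11 not called were present in both libraries. Lrp1 had 355 TPM in macrophages and 187 TPM in fibroblasts, and Scarb1 76.7 TPM in macrophages and 47.1 TPM in fibroblasts. Jmjd6 had 29.4 TPM in macrophages and 54.2 TPM in fibroblasts. The median log2 ratio was 5.08 over the 13 at 1 TPM or more. The same median over all 13606 genes at 1 TPM or more was -0.28. Trem2, a lipid receptor of phagocytes, had 1452 TPM in macrophages and 1.41 TPM in fibroblasts. The scavenger receptor gene Cd36 had 486 TPM in macrophages and 2.27 TPM in fibroblasts, and Cd14, which is also 1 of the macrophage markers used above, 404 TPM in macrophages and 1.78 TPM in fibroblasts. Over this list and the members together, the uptake receptors called toward fibroblasts were Axl, with the scaling limit given above, and Tyro3. Other bridging proteins were divided: of 14 listed genes 9 reached 5 TPM, with 4 called toward macrophages and 3 toward fibroblasts. The calls were 44.4% and 33.3% of the 9, beside 8.77% and 14.3% of all genes at 5 TPM or more. The list median was -0.23. Lgals3, encoding galectin-3, had 8795 TPM in macrophages and 699 TPM in fibroblasts, and the complement genes C1qb and C1qc had 3514 and 2689 TPM in macrophages against 2.21 and 2.23 TPM in fibroblasts. On the other side Thbs1, encoding thrombospondin-1, had 39.2 TPM in macrophages and 4977 TPM in fibroblasts, and the pentraxin gene Ptx3 0.107 TPM in macrophages and 254 TPM in fibroblasts. Edil3, a close relative of Mfge8 that also binds integrins, had 1.37 TPM in macrophages and 23.2 TPM in fibroblasts, the same direction as Mfge8.

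Of 8 genes for enzymes that mature and shed the TAM proteins 0 were higher in macrophages and 1, the quinone reductase gene Nqo1, in fibroblasts. This is 12.5% of the list, beside 23.1% of all genes at 5 TPM or more in either library. Nqo1 stood at 3.86 TPM in macrophages against 72.8 TPM in fibroblasts. The carboxylase gene Ggcx, without which GAS6 and protein S do not bind lipid, stood at 7.75 TPM in macrophages against 25.0 TPM in fibroblasts, as the sum of 2 identical rows that may be doubled. The vitamin K reductase gene Vkorc1 stood at 72.8 TPM in macrophages against 171 TPM in fibroblasts. The sheddase genes Adam17, at 98.6 TPM in macrophages against 33.2 TPM in fibroblasts, and Adam10, at 95.1 TPM in macrophages against 70.7 TPM in fibroblasts, did not reach the limit either. The list's median of -0.08 turned positive under median-of-ratios scaling, at 0.097.

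Genes reported to act downstream of the TAM kinases were divided, with 3 of 12 called toward macrophages and 3 toward fibroblasts. Each side was 25% of the list, beside 8.77% and 14.3% of all genes at 5 TPM or more. Among the macrophage-side genes, the exchange factor gene Vav1 had 143 TPM in macrophages against 0.158 TPM in fibroblasts, and the phospholipase gene Plcg2 had 87.8 TPM in macrophages against 2.65 TPM in fibroblasts. Src, Ptk2, which encodes focal adhesion kinase, and Socs3, a cytokine feedback gene, had 0.801, 4.14 and 2.11 TPM in macrophages, against 44.1, 35.0 and 17.0 TPM in fibroblasts. The median of the list was 0.63. In the engulfment machinery 6 of 19 genes were called toward macrophages and 2 toward fibroblasts. The calls were 33.3% and 11.1% of the 18 at 5 TPM or more, beside 8.77% and 14.3% of all such genes. The list median of -0.08 turned positive, at 0.063, under median-of-ratios scaling. The GTPase gene Rac2 had 152 TPM in macrophages and 0.0990 TPM in fibroblasts, while its relative Rac1 had 457 TPM in macrophages and 484 TPM in fibroblasts. The exchange factor gene Dock2 had 92.8 TPM in macrophages and 0.175 TPM in fibroblasts, while Dock1 had 12.8 TPM in macrophages and 25.3 TPM in fibroblasts. Of the DOCK partner genes, Elmo1 had 42.8 TPM in macrophages and 0.342 TPM in fibroblasts, and Elmo2 42.1 TPM in macrophages and 71.9 TPM in fibroblasts. The adaptor gene Gulp1 and the docking protein gene Bcar1 were on the fibroblast side, at 0.0747 and 0.426 TPM in macrophages against 42.8 and 58.6 TPM in fibroblasts.

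**Figure D4:**
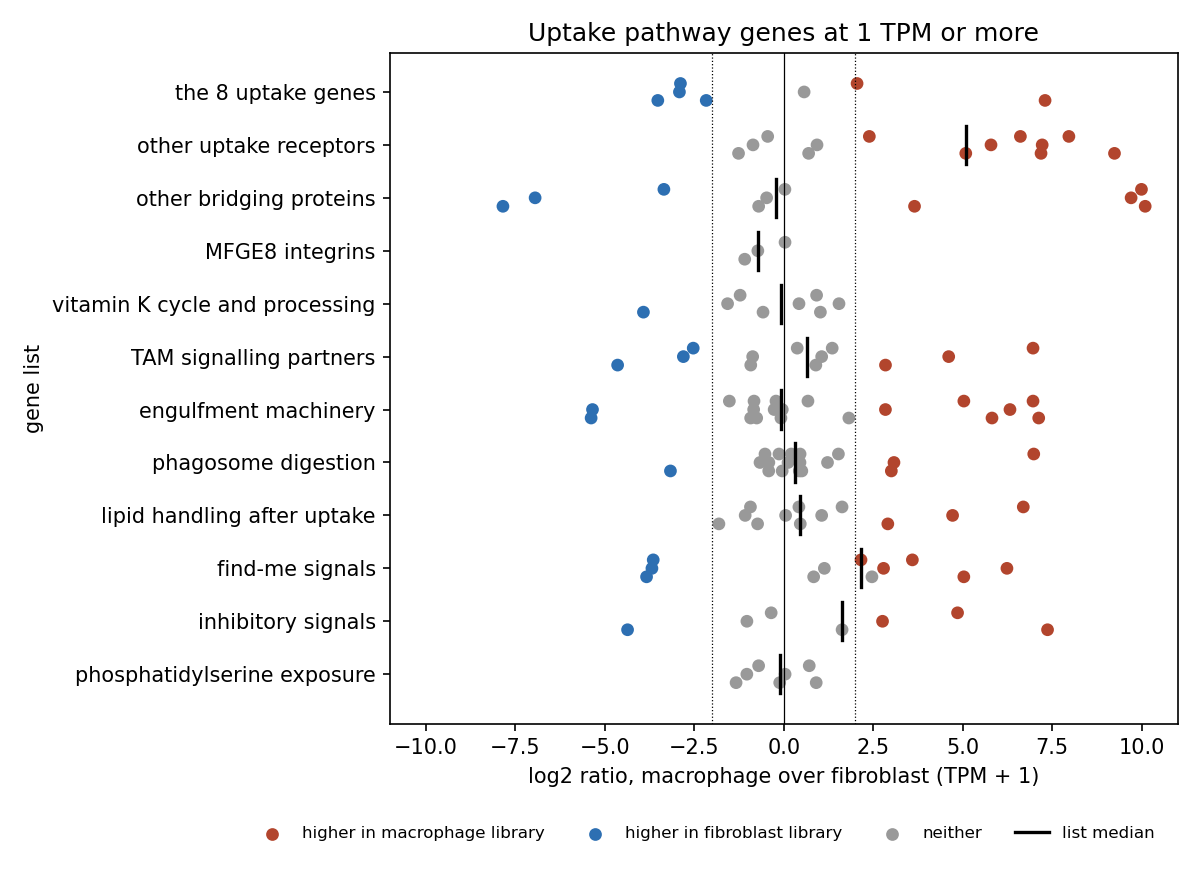
Log2 ratio of TPM plus 1, macrophage over fibroblast, of each gene at 1 TPM or more in the lists named on the left; colours give the call by the size rule, dotted lines the 4-fold limit and black bars the list medians. Other listed uptake receptors lie mostly to the right, with a median of 5.08, whereas the members themselves lie on both sides (1 library per cell type, and medians near 0 change sign with scaling).

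Of 18 phagosome genes 3 were called toward macrophages and 1 toward fibroblasts, 22.2% of the list beside 23.1% of all genes at 5 TPM or more, and the list median was 0.32. Cyba and Cybb, which encode the membrane subunits of the phagocyte oxidase, had 1506 and 160 TPM in macrophages against 178 and 0.276 TPM in fibroblasts. Dnase2a, encoding the lysosomal enzyme that digests the DNA of engulfed cells, had 210 TPM in macrophages and 25.3 TPM in fibroblasts. Map1lc3a had 18.8 TPM in macrophages and 177 TPM in fibroblasts. Of 12 genes of lipid handling after uptake 0 were called toward fibroblasts, and the list median was 0.44. Beside 8.77% of all genes at 5 TPM or more, 25% of the list, 3 genes, were called toward macrophages. These were the mitochondrial carrier gene Ucp2, at 643 TPM in macrophages against 5.24 TPM in fibroblasts, and the cholesterol exporter genes Abcg1, at 39.5 TPM in macrophages against 0.541 TPM in fibroblasts, and Abca1, at 33.7 TPM in macrophages against 3.63 TPM in fibroblasts. Over the 131 distinct pathway genes outside the 8, of which 130 were found and 112 reached 5 TPM, 34 were called toward macrophages and 14 toward fibroblasts. These were 30.4% and 12.5% of the 112, beside 8.77% and 14.3% of all genes at 5 TPM or more.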

How the data were processed

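The 2 deposited columns hold 1 value per gene row; no header gives a unit, and the non-negative values sum to almost 1000000. They were read as TPM, which the authors made with kallisto 0.43.1 on GRCm38, per the submitters' processing notes. Transcript set, gene-level summing and filters were not given in the sources used here. Per the labels' protocols the libraries were stranded poly(A) libraries read as pairs of 76 bp. Rows sharing a symbol were added. Log2 ratios used a pseudocount of 1, and the size rule was 4-fold with 5 TPM or more in the higher library. No test was run. The members and lists were chosen with earlier results of these data known. Named genes were the 8 members, the nearest genes by level and genes of each pathway list. Each pathway list gave its 3 most abundant called genes per direction or, with none called, its 2 most abundant. Havcr1, Havcr2, Timd2, Lrp1, Scarb1, Jmjd6, Ggcx, Vkorc1, Adam10, Adam17, Itgb3, Rac1, Dock1, Elmo1, Elmo2, Cd47 and single marker genes were chosen after their values were seen. A gene that this rule takes is not reported here. Coordinates come from GENCODE M21 and promoter sequences from RefSeq, both GRCm38. Alternatives changed the pseudocount, minimum, threshold, scaling, row handling and gene set. Python 3.11.15 with pandas 2.3.3 was used.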

Additional observations from a re-analysis of the deposited data

How the results depend on the processing

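With a pseudocount of 5 the log2 ratios of Mertk and Tyro3 were 1.50 and -1.87, the members higher in macrophages numbered 1, all genes higher numbered 652 in macrophages and 896 in fibroblasts, and the median of the find-me list was 1.00; a larger pseudocount pulls low genes toward 0. Median-of-ratios scaling gave Axl -1.99 and turned the medians of the TAM maturation, engulfment and phosphatidylserine exposure lists positive, at 0.097, 0.063 and 0.064. Removal of mitochondrial and the 50 highest genes before rescaling did the same, at 0.048, 0.038 and 0.015. A 2-fold threshold gave 23 pathway genes higher in fibroblasts and 1698 and 2637 genes higher in macrophages and in fibroblasts over all genes. Of the 6 called members, Axl, Mertk and Tyro3 each lost the call under 1 alternative; the alternatives on minimum, threshold and rows leave the member log2 ratios as they are by construction. Subtracting from each library the median marker share of the other was an alternative chosen after seeing the data. It lowers the smaller level by the larger share, so it moved the called ratios away from 0, with Stab1 at 7.70. It could not remove any of the 6 member calls, and their staying in place carries no weight. No paired analysis was possible because each group has 1 library, and depth is unknown.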

Other observations

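Genes listed for signals that draw phagocytes to dying cells, receptors among them, were divided between the libraries. Of 11 find-me genes 5 were called toward macrophages and 3 toward fibroblasts, and the list median was 2.16 on the log2 scale. The calls were 50% and 30% of the 10 at 5 TPM or more, beside 8.77% and 14.3% of all such genes. The macrophage side held receptors: P2ry6, a nucleotide receptor gene, at 165 TPM in macrophages against 1.21 TPM in fibroblasts, S1pr1, a sphingosine 1-phosphate receptor gene, at 106 TPM in macrophages against 14.5 TPM in fibroblasts, and Cx3cr1 at 35.0 TPM in macrophages against 0.101 TPM in fibroblasts. The fibroblast side held Csf1, Cx3cl1 and Sphk1, at 30.5, 0.712 and 0.338 TPM in macrophages against 395, 23.5 and 16.2 TPM in fibroblasts. Csf1 encodes the macrophage growth factor CSF1, Cx3cl1 the ligand of CX3CR1 and Sphk1 a sphingosine kinase.

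Inhibitors of uptake were higher in macrophages for 3 of 8 listed genes, of which 7 were found, and in fibroblasts for 1, with a median of 1.63. The calls were 50% and 16.7% of the 6 at 5 TPM or more, beside 8.77% and 14.3% of all such genes. Sirpa, whose product reads CD47 on other cells, had 699 TPM in macrophages and 23.2 TPM in fibroblasts, and the inhibitory receptor gene Pirb 229 TPM in macrophages and 0.393 TPM in fibroblasts. Cd22 had 5.76 TPM in macrophages and was listed at 0 in fibroblasts, and Cd47 itself was not called, at 160 TPM in macrophages against 51.1 TPM in fibroblasts. Siglecg, encoding a sialic acid receptor known from B cells, went the other way, at 0.532 TPM in macrophages against 30.6 TPM in fibroblasts, while lymphocyte markers summed to 7.49 TPM in macrophages and 0.483 TPM in fibroblasts. Of 9 genes that set phosphatidylserine exposure 7 were at 5 TPM or more and 0 were called, beside 23.1% of all such genes. Tmem30a had 85.1 TPM in macrophages against 92.3 TPM in fibroblasts, and Atp11a 29.8 TPM in macrophages against 76.7 TPM in fibroblasts.

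Markers of further cell types were low or mixed. Of 10 dendritic cell markers 2 reached 5 TPM in either library, Itgax and H2-Ab1. Both were higher in macrophages, beside 8.77% of all genes at 5 TPM or more. They stood at 6.96 and 19.1 TPM in macrophages against 0.0971 and 2.89 TPM in fibroblasts. Of 10 megakaryocyte and erythroid markers 2 reached 5 TPM in either library. Pf4 was higher in macrophages, at 633 TPM against 1.02 TPM in fibroblasts. Ppbp was higher in fibroblasts, listed at 0 in macrophages and at 24.9 TPM in fibroblasts. Each call was 50% of the 2, beside 8.77% and 14.3% of all genes at 5 TPM or more. Of 8 muscle and neural markers 3 reached 5 TPM in either library. Des and Tubb3 were higher in fibroblasts, at 0 and 0.163 TPM in macrophages against 6.11 and 20.8 TPM in fibroblasts. They were 66.7% of the 3, beside 14.3% of all genes at 5 TPM or more. Nes, the most abundant of the list in macrophages, was not called, at 30.8 TPM in macrophages against 9.96 TPM in fibroblasts. Of 8 epithelial and 11 lymphocyte markers 0 reached 5 TPM.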
